A study of Mus musculus with 8 samples.

Results

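Xpa and 9 further genes of nucleotide excision repair (Xpc, Ddb1, Ddb2, Ercc6, Ercc2, Ercc3, Ercc1, Ercc4 and Ercc5) were examined in mouse hind limb muscle after disuse. They were taken by name, each through the probe set that carries its Entrez number, and all 10 were found among the 21212 probe sets of the arrays. The RNA came from the gastrocnemius and plantaris of C57BL/6J wild type females that were 7 weeks old, with nothing else given or deleted. In the unloaded group (4 arrays) the hind limbs had been kept off the cage floor for 5 days, and in the weight bearing group (4 arrays) the mice stood normally. Each array held an independent RNA sample, mice were assigned to the groups at random, and a single time point was taken. Values are log2 expression as computed by the authors with robust multi-array analysis (RMA), which corrects the background, makes the distributions of the arrays alike and summarises the probes of a gene.

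Nucleotide excision repair removes bulky, helix-distorting lesions such as those made by ultraviolet light. In the global branch, XPC and the DDB1-DDB2 complex find the lesion, and in the transcription-coupled branch a stalled RNA polymerase II recruits CSB, the product of Ercc6. Both branches then bring in TFIIH, whose helicases XPB and XPD (Ercc3 and Ercc2) open the DNA, and XPA, which checks the lesion and holds the incision complex together. ERCC1-XPF (Ercc1 and Ercc4) cuts on the 5′ side and XPG (Ercc5) on the 3′ side, and the gap is filled by replicative polymerases and sealed. Muscle fibres are not dividing, so these genes act there outside DNA replication, and Xpa is also known as a gene whose expression follows the circadian clock in other mouse tissues.

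The start regions of 4 of these genes are shown here so that the letters upstream of the gene with the largest change can be set beside those of Ercc4 and Ercc6, which were also higher in unloaded muscle, and Ercc1, which was not. RefSeq (GRCm38.p6) start windows were at hand for 7 of the 10 genes (Xpa, Ercc4, Ercc6, Ddb1, Ercc1, Ercc2 and Ercc5). The sequences are the 250 bases before the annotated start, written 5′ to 3′ on the strand of the gene. Capitals mark matches, on either strand, to the CCAAT box (its 5 letters are its name), to the GC box with the letters GGGCGG, or to the E-box of clock factors and others with the letters CACGTG.
Xpa, minus strand, chr4:46196312-46196561: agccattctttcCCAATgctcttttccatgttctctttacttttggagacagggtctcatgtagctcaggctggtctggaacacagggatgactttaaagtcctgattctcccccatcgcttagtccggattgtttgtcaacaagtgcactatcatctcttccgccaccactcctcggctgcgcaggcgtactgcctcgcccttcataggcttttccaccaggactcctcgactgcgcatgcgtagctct
Ercc4, plus strand, chr16:13109486-13109735: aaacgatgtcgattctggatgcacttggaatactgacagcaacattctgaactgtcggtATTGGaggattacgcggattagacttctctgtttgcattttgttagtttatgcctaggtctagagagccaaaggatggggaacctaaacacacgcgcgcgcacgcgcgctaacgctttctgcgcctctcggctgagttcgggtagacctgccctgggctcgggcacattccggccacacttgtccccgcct
Ercc6, plus strand, chr14:32513271-32513520: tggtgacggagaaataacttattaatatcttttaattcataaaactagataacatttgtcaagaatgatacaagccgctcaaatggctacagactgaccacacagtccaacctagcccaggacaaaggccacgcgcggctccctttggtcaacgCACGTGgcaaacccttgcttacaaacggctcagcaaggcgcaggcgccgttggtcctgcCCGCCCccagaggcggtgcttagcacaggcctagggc
Ercc1, plus strand, chr7:19344821-19345070: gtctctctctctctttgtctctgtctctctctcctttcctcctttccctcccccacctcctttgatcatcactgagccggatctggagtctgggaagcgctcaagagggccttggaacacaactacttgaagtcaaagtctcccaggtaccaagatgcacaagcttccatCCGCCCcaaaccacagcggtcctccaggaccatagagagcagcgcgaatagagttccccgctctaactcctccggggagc
Over the whole windows (250 bases before to 50 after the start) the E-box letters stood in 1 of the 7 genes, Ercc6, and in 7.15% of all 32851 windows of the table. GGGCGG stood in 4 of 7 (35.7% of all windows), CCAAT in 4 of 7 (37.4%), TATAAA in 0 of 7 (13.6%) and a loose kappaB-like pattern (GGG, any 5 bases, CC), which can overlap a GC box, in 3 of 7 (50.8%). The Xpa window held CCAAT, with its first base at position -238 from the start, and none of the other 4 motifs. These matches describe letters only.

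The 8 arrays had medians between 6.28 and 6.33 and none duplicated another. Arrays of 1 group correlated with r from 0.996 to 0.997 and arrays of different groups with r from 0.992 to 0.994. All 10 muscle fibre markers looked at, such as Acta1 and Ckm, lay at or above the 99.6th percentile of mean level. Probe sets were compared by limma with Benjamini-Hochberg adjustment over all of them, and an adjusted p under 0.05 made a gene higher or lower. By this rule 12.8% of all probe sets were higher and 11.0% lower in unloaded muscle (22.0% and 15.4% at an unadjusted p under 0.05), and the median log2 difference was 0.04. The 10 genes were named with results of this contrast known, so for them the calls are given as a description, without p-values.

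Xpa had the largest change of the 10 genes. Its log2 values were 8.57, 8.39, 8.44 and 8.57 on the unloaded arrays and 7.49, 7.35, 7.41 and 7.41 on the weight bearing arrays. Every unloaded array lay above every weight bearing array, and the lowest unloaded value exceeded the highest weight bearing value by 0.91. The group means were 8.49 ± 0.09 and 7.42 ± 0.06 (SD, n = 4 each), a difference of 1.08 with a standard error of 0.06, or 2.11-fold. By size of rise Xpa took place 17 of 21212 probe sets. The difference stayed between 1.05 and 1.11 under all 17 alternatives that give it a value.

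**Figure D1:**
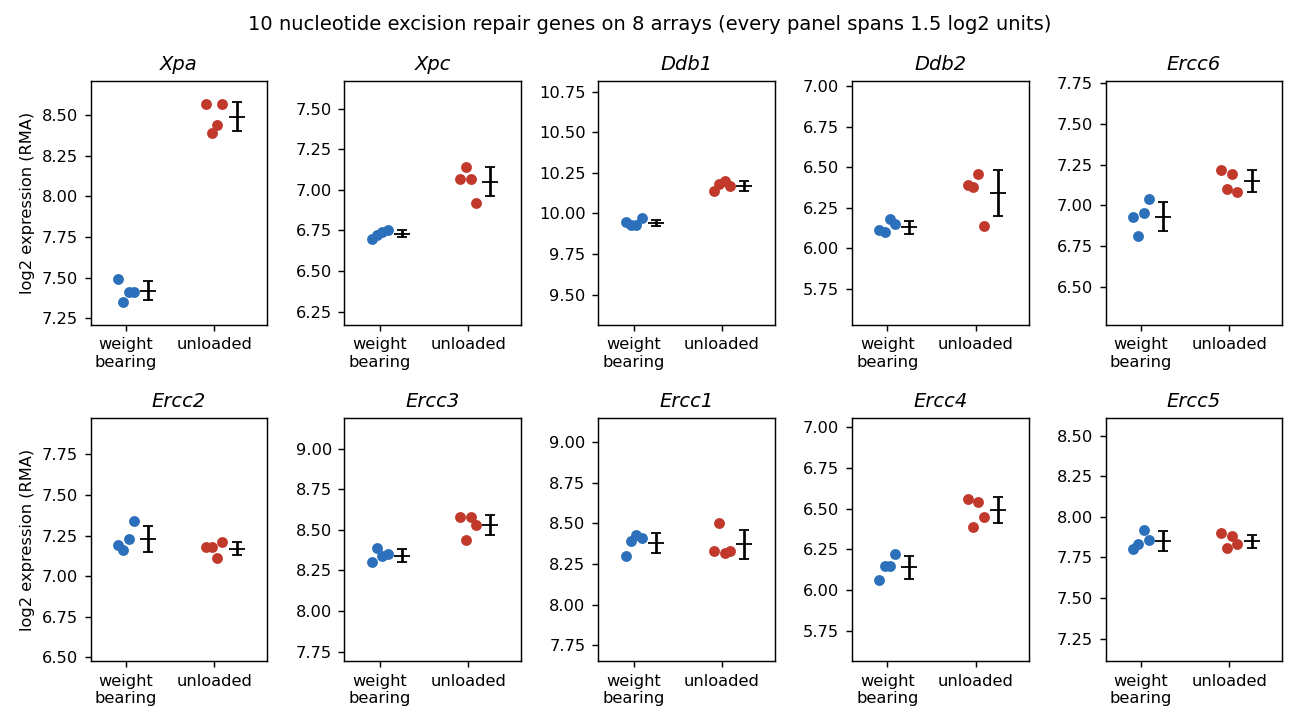
Log2 expression of the 10 genes on the 4 weight bearing (blue) and 4 unloaded (red) arrays, 1 point per array, with the group mean and SD in black beside them. Every panel spans the same 1.5 log2 units, and the Xpa panel shows the widest separation, with means of 7.42 and 8.49.

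Of the genes that find the lesion, Xpc was 1.25-fold higher in unloaded muscle. Its log2 values were 7.07, 7.14, 7.07 and 6.92 on the unloaded and 6.70, 6.72, 6.74 and 6.75 on the weight bearing arrays, which did not overlap. Ddb1, the scaffold that ties DDB2 to the CUL4 ubiquitin ligase, was 1.17-fold higher, with values from 10.14 to 10.20 against 9.93 to 9.97. Its spread was the smallest of the 10 genes (pooled SD 0.02), and again the groups stood apart. Ddb2, which binds ultraviolet photoproducts directly, had log2 values of 6.39, 6.38, 6.46 and 6.14 on the unloaded and 6.11, 6.10, 6.18 and 6.15 on the weight bearing arrays. Unloaded replicate 4 lay within the weight bearing values. The difference of 0.21 (SE 0.07) passed the threshold, but it did so under only 2 of its 16 alternatives, when the dimmest 25% of probe sets (17.1% of the rest called higher) or unloaded replicate 4 (9.38%) was left out.

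Ercc6, which encodes the ATPase CSB of the transcription-coupled branch, had log2 values of 7.22, 7.10, 7.19 and 7.08 on the unloaded and 6.93, 6.81, 6.95 and 7.04 on the weight bearing arrays. The groups lay just apart, by 0.04, and the difference was 0.22 (SE 0.06, 1.16-fold). Of the helicases of TFIIH 1 was called and the other was not, and the difference between them was not tested. Ercc3 (XPB) was 1.14-fold higher, with values of 8.58, 8.44, 8.58 and 8.53 against 8.30, 8.39, 8.34 and 8.35. Ercc2 (XPD) had 7.18, 7.18, 7.11 and 7.21 against 7.19, 7.16, 7.23 and 7.34, with overlapping groups and a difference of -0.06 (SE 0.05).

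The nuclease genes were also unequal. Ercc4, the catalytic subunit XPF, had log2 values of 6.56, 6.39, 6.54 and 6.45 on the unloaded and 6.06, 6.15, 6.15 and 6.22 on the weight bearing arrays. The groups did not overlap, and Ercc4 was 1.27-fold higher in unloaded muscle, the next largest change after Xpa. Its partner Ercc1 had 8.33, 8.50, 8.32 and 8.33 against 8.30, 8.39, 8.43 and 8.41, a difference of -0.01 (SE 0.06) with overlapping groups. Ercc5 (XPG) had 7.90, 7.81, 7.88 and 7.83 against 7.80, 7.83, 7.92 and 7.86, a difference of 0.00 (SE 0.05). These arrays thus gave XPF and its obligate partner different changes, 0.34 and -0.01 on the log2 scale, though the difference between them was not tested.

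Of the 10 genes, 7 were called higher (Xpa, Ercc4, Xpc, Ddb1, Ercc6, Ddb2 and Ercc3) and 0 lower, where 12.8% of all probe sets were called higher and 11.0% lower. Their median log2 difference was 0.21, against 0.04 over all probe sets. In 6 of the 10 the groups did not overlap, with unloaded higher (15.5% of all probe sets), and in 0 of the 10 with unloaded lower (12.0%). Since the genes were chosen with this contrast known, nothing is read from these shares. Leaving aside the 1.2-fold minimum given below, Xpa, Xpc, Ercc4 and Ddb1 passed in all 17 alternatives, Ercc3 in 14 of 17 and Ercc6 in 11 of 17. The count of genes called higher was 4, namely Xpa, Xpc, Ercc4 and Ddb1, when unloaded replicate 3 (8.50% of all probe sets called higher) or weight bearing replicate 1 (9.03%) was left out. With the methods' t-test it was 5 (6.57% of all probe sets were called higher and 6.48% lower), and with a minimum change of 1.2-fold it was 3 (5.86% higher, 7.34% lower), namely Xpa, Xpc and Ercc4. Apart from Xpa, the changes were thus small, with at most 0.34 on the log2 scale.

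**Figure D2:**
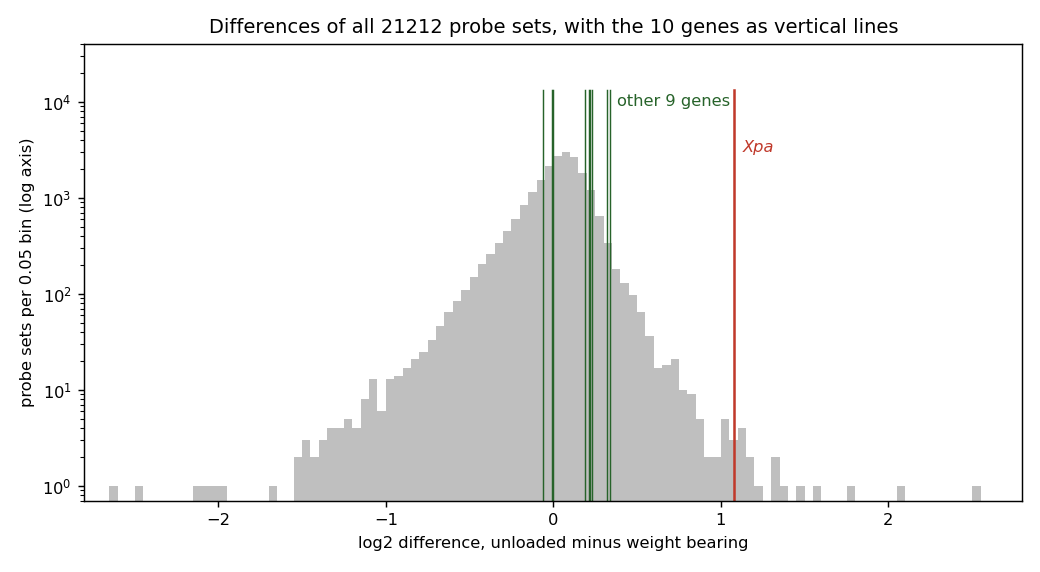
Number of probe sets in each 0.05-wide bin of the log2 difference (unloaded minus weight bearing, log count axis), with the 10 genes as vertical lines, Xpa in red and the other 9 in green. The other 9 genes lie between -0.06 and 0.34, and Xpa at 1.08 lies in the sparse right tail.

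The arrays of a group differed in which genes were highest. Unloaded replicate 1 was the highest of its group in 5 of the 10 genes, and unloaded replicate 4 in 1. On each unloaded array, between 6 and 8 of the 10 genes lay above all 4 weight bearing values. The 6 genes whose groups did not overlap count on every unloaded array, so this range largely repeats the count given above. The share of all probe sets by this rule was not computed, and nothing is read from it. Weight bearing replicate 4 was the highest of its group in 5 genes and the lowest in 0. The pooled SD of the genes ran from 0.02 (Ddb1) to 0.10 (Ddb2).

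Of 40 other genes of the pathway that were listed, 37 were measured, and 9 were higher and 6 lower (limma adjusted p under 0.05, background 12.8% and 11.0%). Their median log2 difference was 0.06. The members moved in both directions, and the largest changes lay in the gap-filling step. Pole, the catalytic subunit of DNA polymerase epsilon, had log2 values of 6.32, 6.33, 6.57 and 6.25 on the unloaded and 5.53, 5.56, 5.81 and 5.75 on the weight bearing arrays (1.63-fold higher, limma adjusted p = 0.00038). Pold2, a subunit of DNA polymerase delta, had 9.83, 9.86, 9.84 and 9.96 against 9.27, 9.26, 9.24 and 9.26 (1.53-fold higher, limma adjusted p = 2.4e-05). Both genes separated the groups completely. In contrast Pole4, a small histone-fold subunit of polymerase epsilon, fell 1.34-fold (8.34 ± 0.10 against 8.77 ± 0.06, SD, n = 4 each, limma adjusted p = 0.00088), and the translesion polymerase gene Polk fell 1.24-fold (limma adjusted p = 0.0045). The RNAs of the polymerase epsilon subunits Pole and Pole4 thus moved in opposite directions. The further subunit genes Pole2 (log2 difference -0.12, limma adjusted p = 0.329) and Pole3 (0.13, limma adjusted p = 0.0883) were not called. Rfc5, Pold3, Rfc1 and Xrcc1 were higher by between 1.17-fold and 1.18-fold, and the clamp loader subunit Rfc2 was 1.14-fold lower.

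Replication protein A, the trimer that coats the undamaged strand, showed a similar split. Rpa1 rose 1.26-fold (9.27 ± 0.07 against 8.94 ± 0.07, SD, n = 4 each, limma adjusted p = 0.0021) and Rpa2 1.18-fold, while Rpa3 fell 1.34-fold (limma adjusted p = 0.022) with values of 6.84, 6.35, 6.61 and 6.51 against 7.05, 7.19, 7.01 and 6.76. The Rpa3 groups overlapped, and the methods' t-test did not call Rpa3 (adjusted p = 0.097). Its limma call was lost without unloaded replicate 2 or 4 or weight bearing replicate 1 or 2. In the transcription-coupled branch 1 of 5 genes was called. This was Uvssa, which stabilises CSB at the stalled polymerase, with log2 values of 6.62, 6.58, 6.66 and 6.61 against 6.30, 6.15, 5.99 and 6.25 (1.36-fold higher, limma adjusted p = 0.0013). Ercc8, which encodes CSA, had a difference of -0.08 (limma adjusted p = 0.565).

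Of the 7 measured further subunits of TFIIH, 0 were higher by limma (1 at an unadjusted p under 0.05) and 1 lower, the cyclin Ccnh (1.23-fold, limma adjusted p = 0.013). The 1 lower gene is 14.3% of the 7, near the 11.0% of all probe sets. The kinase it activates, Cdk7, had a difference of 0.19 (limma adjusted p = 0.064). Among 5 measured partners in damage recognition 0 were higher by limma (0 at an unadjusted p under 0.05), and Cetn2, the centrin bound to XPC, was 1.18-fold lower (limma adjusted p = 0.025). Rad23b, which stabilises XPC, had a difference of 0.03, and the ligase subunits Cul4a, Cul4b and Rbx1 had differences between 0.04 and 0.08. The methods' t-test called 4 of the 37 genes higher and 3 lower (6.57% and 6.48% of all probe sets). Limma called 3 lower without weight bearing replicate 1 (8.64% of all probe sets) or without unloaded replicate 4 (8.91%). With a minimum change of 1.2-fold, 4 were higher and 4 lower (5.86% and 7.34% of all probe sets).

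**Figure D3:**
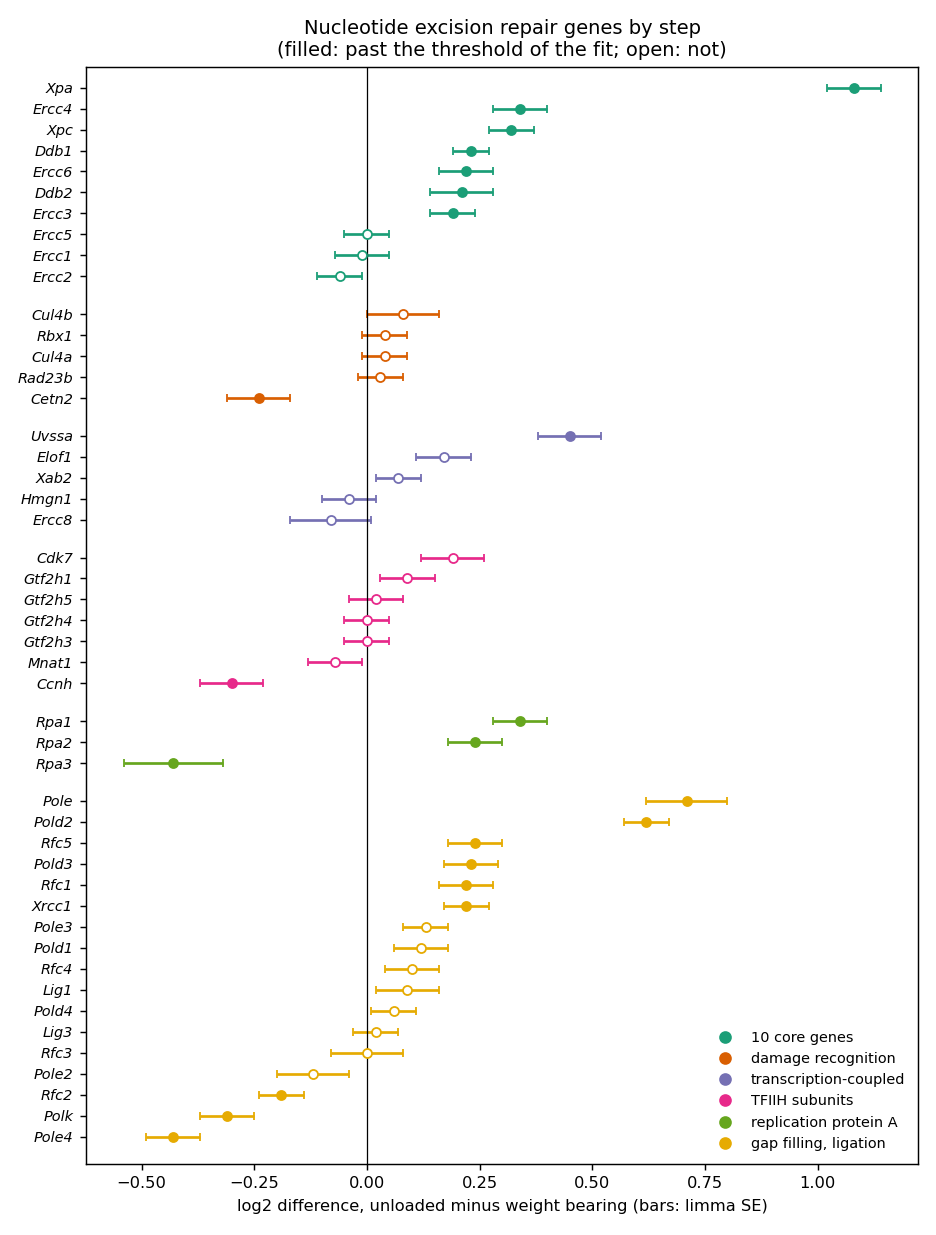
Log2 difference (unloaded minus weight bearing) of the 10 genes and the 37 other measured genes of the pathway, grouped by step, with bars for the limma standard error and filled points for genes past the threshold. Xpa stands alone at 1.08, followed by Pole at 0.71 and Pold2 at 0.62, and Pole4 and Rpa3 are lowest at -0.43.

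Other DNA repair pathways were read from 4 lists, of which 65 of 72 genes were measured, and 10 were higher and 3 lower by limma (17 and 6 at an unadjusted p under 0.05). The 10 higher are 15.4% of the 65 genes, near the 12.8% of all probe sets, and the 3 lower are 4.62%, against 11.0%. At the unadjusted threshold 22.0% of all probe sets were higher and 15.4% lower. Of 21 base excision repair genes 4 were higher and 0 lower, with a median log2 difference of 0.08. The 2 called genes with the largest rise, the nuclease Apex2 and the glycosylase Mpg, were both 1.2-fold higher (limma adjusted p = 0.0081 and 0.019). Of 6 mismatch repair genes 1 was higher, Pms2 (1.17-fold), and 0 were lower. Of 22 genes of double-strand break repair 2 were higher and 2 lower, with a median of 0.02. Xrcc5, the Ku80 subunit of the end-joining complex, fell 1.42-fold, with values of 8.55, 8.23, 8.21 and 8.37 against 8.86, 8.85, 8.88 and 8.78 (limma adjusted p = 0.0012). Poll was 1.18-fold lower, and Blm and Prkdc were 1.19-fold and 1.16-fold higher. Of 16 interstrand crosslink repair genes 3 were higher and 1 lower, with a median of 0.05. Mus81, a structure-specific nuclease, fell 1.2-fold (limma adjusted p = 0.0044), and Slx4 and Fanca were 1.18-fold and 1.16-fold higher. With 1 array left out, between 4 and 8 of these 65 genes were higher and between 2 and 5 lower. Over all probe sets the shares then ran from 8.5% to 13.4% higher and from 8.64% to 10.4% lower. The lowest count of 4 was met without unloaded replicate 3 (8.5% of all probe sets higher) or weight bearing replicate 3 (9.89%). Without unloaded replicate 4 (9.38%) or weight bearing replicate 2 (9.68%), 5 were higher, and without weight bearing replicate 1 (9.03%), 6 were higher. The 5 lower were met without weight bearing replicate 3 (9.96% of all probe sets lower). The 2 lower were met without weight bearing replicate 1 (8.64%) or 4 (9.92%). The highest log2 difference among the 65 genes was 0.28, against 1.08 for Xpa. It was that of Tdg, which was not called (limma adjusted p = 0.304) and lay at the 1.8th percentile of mean level. Apex2 and Mpg, the called genes with the largest rise, had 0.26.

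**Figure D4:**
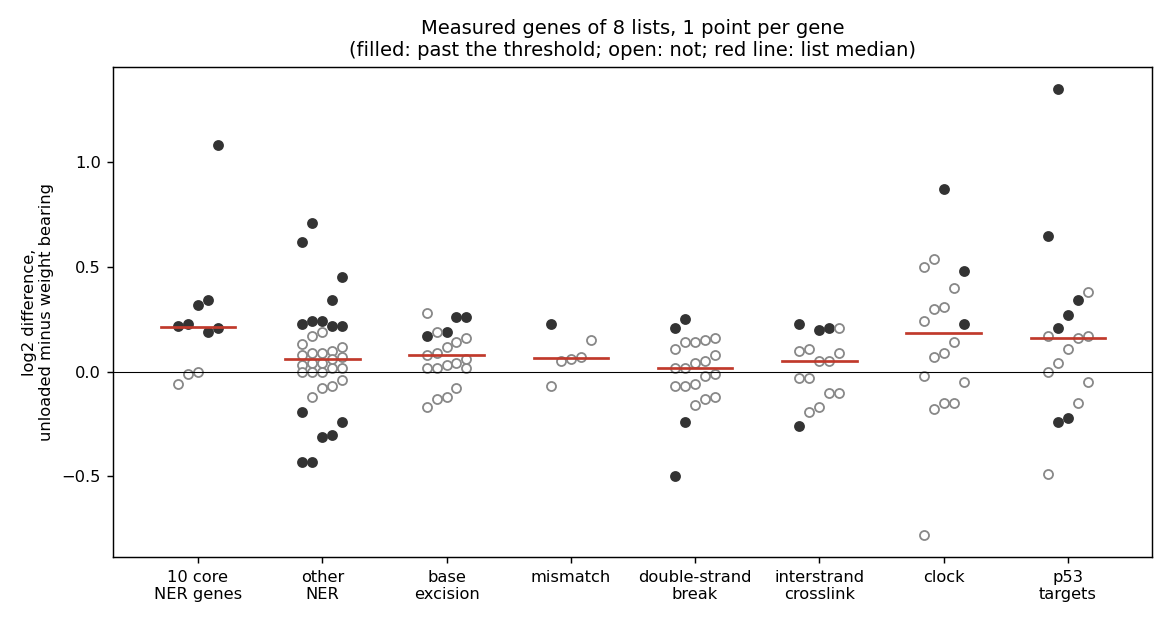
Log2 difference (unloaded minus weight bearing) of the measured genes of 8 lists, 1 point per gene, filled where the gene passed the threshold, with the list median as a red line. Most genes of the repair lists lie close to 0, and Xpa at 1.08, Cry2 at 0.87 and Eda2r at 1.35 lead their lists.

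Because Xpa is known to follow the clock elsewhere, the clock genes were read beside it. Of 18 measured clock and clock-output genes 3 were higher by limma (5 at an unadjusted p under 0.05) and 0 lower (1 at an unadjusted p under 0.05). The 3 are 16.7% of the list, near the 12.8% of all probe sets that were higher. Cry2, a repressor of the clock, had log2 values of 8.37, 8.39, 8.47 and 8.40 on the unloaded and 7.35, 7.25, 7.55 and 8.01 on the weight bearing arrays (1.83-fold higher, limma adjusted p = 0.0015). The groups did not overlap, but the methods' t-test did not call Cry2 (adjusted p = 0.073). Rora, an activator of Arntl transcription, rose 1.4-fold (limma adjusted p = 0.00036) and Cry1 1.17-fold (limma adjusted p = 0.012). Without weight bearing replicate 4, 9 clock genes were higher and 2 lower, where 10.9% of all probe sets were higher and 9.92% lower.

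The weight bearing arrays differed among themselves in clock genes. All 18 clock genes had a wider range over the 4 weight bearing arrays (median 0.75 on the log2 scale) than over the 4 unloaded arrays (median 0.18). Dbp and Arntl, named after their values were seen, show the pattern. Dbp, a clock-output factor, had 7.74, 7.78, 9.39 and 9.88 on weight bearing replicates 1 to 4 and 8.68, 8.63, 9.01 and 8.81 on the unloaded arrays. Arntl (Bmal1) had 8.53, 8.52, 7.99 and 7.11 on the weight bearing arrays, so that the arrays with low Dbp had high Arntl. No source used here states the hour at which each muscle was taken. Over the same 4 weight bearing arrays Xpa had a range of 0.13, and the part of the clock in its change was not tested.

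Of 17 measured targets of p53, 5 were higher (29.4%, against 12.8% of all probe sets) and 2 lower (11.8%, against 11.0%), with a median log2 difference of 0.16. Eda2r rose 2.54-fold (8.81 ± 0.37 against 7.47 ± 0.47, SD, n = 4 each, limma adjusted p = 0.0026) and Trp53inp1 1.57-fold (limma adjusted p = 7.7e-05). Ccng1 and Zmat3, both targets as well, were 1.18-fold and 1.17-fold lower. With 1 array left out the counts ran from 3 to 5 higher and from 1 to 2 lower. The shares of all probe sets then ran from 8.5% to 13.4% higher and from 8.64% to 10.4% lower. The fewest, 3 higher, came without unloaded replicate 3 or 4 or weight bearing replicate 2 or 3, and 1 lower came without unloaded replicate 1 or 2 or weight bearing replicate 1. Of the 6 measured partners and regulators of XPA, 3 were higher (Sirt1, Atrip and Cry1, which is also a clock gene) and 1 lower. Sirt1, a deacetylase that acts on XPA, was 1.19-fold higher (limma adjusted p = 0.022), and Gpn1, an XPA-binding GTPase, was 1.13-fold lower (limma adjusted p = 0.021). Herc2, the ubiquitin ligase that limits XPA protein, had a difference of 0.08 (limma adjusted p = 0.218).

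The genes whose log2 values over the 8 arrays were most like those of Xpa were Slc2a3 (Pearson r = 0.997), Abca5 (0.996), Whamm (0.995), Aox3 (0.994) and Mbnl1 (0.992). They were higher in unloaded muscle by 1.57, 1.67, 1.4, 1.23 and 1.19-fold, and such an r over 2 separated groups mainly describes the group difference. Of the other 9 repair genes, Ddb1 was most like Xpa (r = 0.971) and Ercc2 least (r = -0.477). After the group means were taken out, the genes most like Xpa were Nxpe4 (r = 0.991), Pggt1b (0.958), Fam162a (0.956), Aifm1 (0.954) and Usp12 (0.950), and the other 9 repair genes had r between -0.676 (Ercc1) and 0.264 (Ercc6). These correlations over 8 arrays are descriptions.

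Opposite-strand starts within 1000 bases of the 7 genes were sought only among the RefSeq start windows at hand (GRCm38.p6), and none was found. Genes without such a window were not searched, so a neighbour of this kind can have been missed. In the RefSeq gene table the nearest gene before Xpa on the chromosome is Ncbp1, which encodes the large subunit of the nuclear cap-binding complex. Its log2 values were 8.75, 8.74, 8.57 and 8.68 on the unloaded and 8.64, 8.60, 8.60 and 8.58 on the weight bearing arrays, overlapping, with a difference of 0.08 (SE 0.05, limma adjusted p = 0.303). The nearest gene on the other side, Gm31617, was not analysed here.

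Most markers of fibroblasts and macrophages were lower in unloaded muscle, where 11.0% of all probe sets were lower and 12.8% higher by limma. Of 7 fibroblast markers 5 were lower (Col1a1, Col1a2, Fn1, Col3a1 and Lum) and 0 higher by limma. Pdgfra, with a log2 difference of -0.11, and Dcn, with -0.02, were not called. The summed linear level of the 7 ran from 7495 to 7725 in unloaded and from 11442 to 13172 in weight bearing muscle. Of 7 macrophage markers 6 were lower and 0 higher, with summed levels from 942 to 1110 and from 1330 to 1622. Of 7 endothelial markers 2 were lower (Kdr and Emcn), with sums from 3335 to 3509 and from 3542 to 3929. Of 5 lymphocyte markers 0 were called (1 higher at an unadjusted p under 0.05), with sums from 104 to 114 and from 97 to 108. All 5 differences lay above 0, as did 61.4% of all probe sets. Cd3g, Cd79a, Cd3d and Ms4a1 were dim, between the 7.9th and 15.9th percentile of mean level, and Cd3e lay at the 38.8th. Of 7 proliferation markers 1 was lower, Aurka (4 at an unadjusted p under 0.05), with sums from 216 to 239 and from 242 to 345. The 1 lower is 14.3% of the list, near the 11.0% of all probe sets. At the unadjusted threshold 22.0% of all probe sets were higher and 15.4% lower. Of the 10 muscle fibre markers 4 were lower and 0 higher, with sums from 68606 to 70354 and from 72800 to 75798. Xpa and the other 6 genes called with it were higher in the group in which most fibroblast and macrophage markers were lower, and the part of cell composition in their change was not tested. In whole muscle, more cells of a type and more RNA per cell cannot be told apart.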

How the data were processed

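The authors hybridised 8 RNA samples (4 unloaded, 4 weight bearing) to Affymetrix Mouse Gene 1.0 ST arrays. The deposited log2 values were made by the authors with RMA and a Brainarray custom probe set definition. Neither its release, its genome build nor the RMA version was found (not given in the sources used here). All 8 columns were used as deposited (0 left out), with no filter. Symbols came from the platform annotation, updated through RefSeq, and 18786 of 21212 probe sets had 1 symbol, 6 several and 2420 none. For the 2 genes with several probe sets the brightest was used. RMA equalises the arrays, so these values cannot show a shift of every gene together.

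Groups, from the sample titles, were compared by limma 3.58.1 (R 4.3.3, lmFit and eBayes, two-sided) with Benjamini-Hochberg adjustment over all probe sets. Fold changes are powers of 2 of differences in mean log2 value. Tables were made with Python 3.11.15 and pandas 2.3.3. The 10 genes and all lists were chosen with earlier results of these data known. Named were the 10 genes, the 4 called genes with the largest rise and fall of the remaining pathway, up to 2 per direction of each comparison list (up to 4 for the clock), the 5 genes most like Xpa by each measure, and neighbours. A few further genes were named as examples after their values were seen. Alternatives were the methods' t-test (unequal variances), array weights, the equal-variance t-test, robust variance with an intensity trend, quantile normalization, array medians set to 0, removal of the lowest 25% or 50% of probe sets by mean level, a replicate block, removal of single arrays, and a minimum of 1.2-fold. The counts of alternatives per gene leave out the 1.2-fold minimum. On 21212 simulated probe sets limma recovered 32.8% of true log2 changes of 0.25, 86.6% of those of 0.5 and 100.0% of those of 1. Only 67, 67 and 66 probe sets were changed by these sizes, a far smaller share than was called in the data. The adjustment depends on that share, so recovery in the data can differ. The number of arrays limits the precision. Genes of the lists without a value are not analysed here.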

Additional observations from a re-analysis of the deposited data

Results flagged for a closer look

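Each group of 4 arrays was examined for a value far from the other 3, in 96 groups of 48 named genes, and 4 had one, where chance gives about 1 in 20. Ercc1 was 8.50 on unloaded replicate 2, with the nearest value at 8.33. Blm was 5.77 on unloaded replicate 3 (nearest 5.49). Poll was 6.44 on weight bearing replicate 3 (nearest 6.59). Cry1 was 7.15 on weight bearing replicate 1 (nearest 7.01). Of the 20 groups of the 10 repair genes, that of Ercc1 was the 1 so marked.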

How the results depend on the processing

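The Xpa difference of 1.08 kept its direction and call throughout, from 1.05 to 1.11 with an array left out. Differences near 0 changed sign, those of Ercc1 (0.01 after quantile normalization, -0.06 to 0.00 with an array left out) and Ercc5 (0.00 with array medians at 0, -0.02 to 0.03 with an array left out). With an array left out, higher calls ran from 4 to 7 of the 10 genes, 7 to 9 of the other pathway genes (lower 3 to 6), 4 to 8 of the other repair genes (lower 2 to 5), 3 to 9 of the clock genes (lower 0 to 2), 3 to 5 of the p53 targets (lower 1 to 2) and 1802 (without unloaded replicate 3) to 2852 of all probe sets (lower 1833 to 2206). The methods' t-test called 4 higher and 3 lower of the other pathway genes, 3 higher of the other repair genes, 3 higher and 1 lower of the p53 targets, and 1393 higher and 1374 lower of all probe sets. The t-test with equal variances called 4 other repair genes and 3 p53 targets higher, and 1 p53 target lower. At least 1.2-fold were 3 of the 10 genes, 4 of the other pathway genes, 1 of the other repair genes and 1244 of all probe sets higher, and 0 p53 targets lower. Quantile normalization gave 5 other repair genes lower. Quantile normalization moved the median of all differences from 0.04 to 0.02. The cause of these shifts was not tested.

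With the replicate block, 2455 of all probe sets were higher, 5 of the 10 genes, 6 of the other repair genes, and 5 clock genes with 1 lower. Ercc3 and Ddb2 lost their calls under it. Deviations from the group means correlated at 0.02 to 0.12 between the 4 pairs of same-numbered arrays and at -0.14 to 0.10 otherwise. Of the 8 arrays, 6 correlated best with their own number. The sample titles do not state that equal numbers pair the samples, so the main fit did not use the numbers. These values do not show the numbers to be unrelated, and what same-numbered arrays may share was not tested. The precision is that of 4 arrays per group.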
